A study of Sus scrofa with 15 samples.

Results

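The cytosolic ribosomal protein genes were taken from the deposited gene tables by symbol: RPL or RPS followed by a number, with an optional letter or paralog suffix, together with RPLP0, RPLP1, RPLP2 and RPSA. Kinase, LOC and pseudogene names were left out. The rule gave 82 genes of 26654 in the tables, 50 for proteins of the large subunit and 32 for proteins of the small subunit. Of these, 76 encode canonical ribosomal proteins (of 80 in a reference list) and 6 are paralogs (RPL3L, RPL7L1, RPL10L, RPL22L1, RPL26L1 and RPS27L). A few ribosomal protein genes fall outside the symbol rule, among them FAU and RACK1, which encode canonical subunits, and the paralog RPL36AL, and they are described separately. RPL41 was not analysed here.

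Ribosomal proteins assemble on ribosomal RNA in the nucleolus into the small subunit, which decodes messenger RNA, and the large subunit, which joins amino acids. Their mRNAs are among the most abundant in most cells, carry a terminal oligopyrimidine (TOP) start that ties their translation to mTORC1 and LARP1, and are usually held in proportion to one another. The corpus cavernosum is the spongy erectile tissue of the penis, built of smooth muscle, fibroblasts and matrix around blood spaces lined by endothelium.

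The study sequenced polyadenylated RNA from the penile corpus cavernosum of pigs (Sus scrofa), in 15 libraries. Its 5 groups, with 3 libraries in each, are called ECs+ implantation, normal, implantation B, defect and implantation A. The labels give no breed, age, agent, implant material or time, do not spell out ECs, and do not say how implantation A differs from implantation B. The series' design compares normal, defect and implantation A pairwise, and ECs+ implantation with implantation B. Comparisons of implantation B and ECs+ implantation with normal were added here. Nothing in the labels ties a library to an animal of its own, so p-values measure only how far these samples spread, which can be technical variation. A second label line of the ECs+ implantation libraries names a normal sample, and that group rests on the sample titles.

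The total count was between 17234169 and 19644793 in 13 libraries, but 207769 in defect replicate 1 and 250178 in defect replicate 2. Counting error is therefore larger in these defect libraries, where 3 counts correspond to 14 and 12 CPM (counts scaled to library size). No pair of libraries of a group agreed within sampling noise. The labelled tissue's markers were present in every group: summed over 10 smooth muscle markers, the level ranged from a group mean of 3210 CPM in implantation B to 6766 CPM in implantation A, and over 12 endothelial markers from 1808 CPM in implantation B to 4902 CPM in normal. Levels below are CPM scaled by trimmed mean of M values (TMM) factors of all 15 libraries unless another unit is named. These factors were 1.03, 0.998 and 0.844 in defect replicates 1, 2 and 3, so the spread of levels in defect depends on scaling. Summed marker levels, here and below, are CPM on library totals alone, without TMM factors. On a mean, ± is the SD over 3 libraries.

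The family took the largest part of the libraries in ECs+ implantation and the smallest in implantation B and defect. Its 82 genes held 6.93% ± 0.0513 of all counts in ECs+ implantation, 5.21% ± 0.0540 in normal tissue and 3.71% ± 0.00781 in implantation A (SD, n = 3 each). The lowest shares were 3.17% ± 0.0477 in defect and 3.10% ± 0.0308 in implantation B. Libraries of neighbouring groups in that order did not overlap, except those of defect (3.12 to 3.21%) and implantation B (3.06 to 3.13%). In TPM, a unit scaled by transcript length that the authors deposited, the family held 24.1%, 19.7%, 16.0%, 13.7% and 13.6% in the same order. In bulk tissue, fewer cells of a type and less RNA per cell cannot be told apart.

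**Figure D1:**
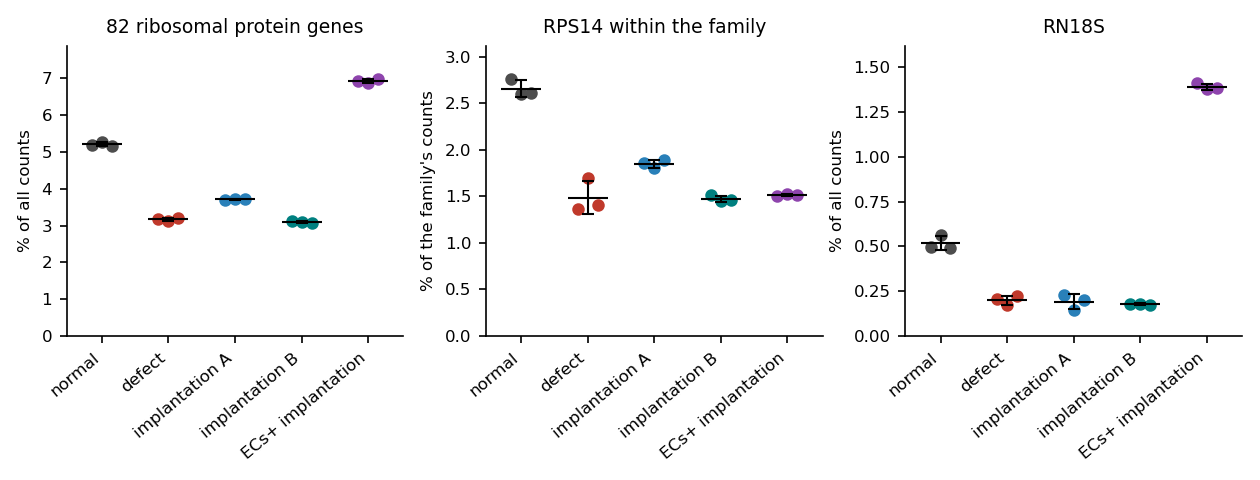
Share of all counts held by the 82 ribosomal protein genes (left), share of the family's counts held by RPS14 (middle) and share of all counts held by RN18S, the small-subunit ribosomal RNA gene (right), in % by group. Points are libraries, lines the mean and bars the SD (n = 3); ECs+ implantation is highest on the left (6.93%) and right (1.39%), and RPS14 holds 2.66% of the family in normal and 1.47 to 1.85% on average in the other groups.

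Other shares also differed between the groups. RN18S held 1.39% ± 0.0172 of all counts in ECs+ implantation, 0.519% ± 0.0407 in normal and 0.178 to 0.199% on average in the other groups. The collagen genes COL1A1, COL1A2 and COL3A1 together held 13.1% of counts in defect, 11.9% in implantation B, 6.95% in implantation A, 1.59% in normal and 1.51% in ECs+ implantation. All 10 fibroblast and matrix markers measured rose in defect against normal, and all 10 fell in ECs+ implantation against implantation B. Their summed level was 20156 to 20345 CPM in the normal libraries, 152256 to 156313 CPM in defect, 81779 to 81925 CPM in implantation A, 139039 to 140825 CPM in implantation B and 20188 to 20221 CPM in ECs+ implantation, with none of the 10 at 0. The summed level of 10 keratinocyte and urothelial markers was 936 to 977 CPM in normal, 2478 to 2666 CPM in defect, 2244 to 2267 CPM in implantation A, 1926 to 1959 CPM in implantation B and 4.84 to 5.05 CPM in ECs+ implantation, where 2 of the 10 were at 0. The collagen share ran opposite to the family's, except that the mean of defect was above that of implantation B in both. RN18S did not separate implantation A from defect. The part of these cell types and of RN18S in the ribosomal protein shift was not tested.

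Between genes, levels can be compared only per length, in TPM. RPL37 (large subunit) was highest with a mean of 5620 TPM over the 15 libraries, followed by RPLP1, an acidic stalk protein, with 5202 TPM and RPS20 (small subunit) with 4714 TPM. The median member was at 2720 TPM in ECs+ implantation, 2260 TPM in normal, 1827 TPM in implantation A, 1499 TPM in implantation B and 1489 TPM in defect. The lowest were paralogs: RPL10L with 0.049 TPM, RPL3L with 0.96 TPM and RPL7L1 with 27.3 TPM. RPS2 was at 470 TPM and RPS21 at 88.7 TPM, far below the median member. In counts, however, RPS2 was the highest member with a mean of 28524 over the 15 libraries, whereas RPS21 had a mean of 96.5. For RPS2, 1 TPM was worth 60.7 counts, against 21.8 for RPL7L1, the next highest member. The low TPM of RPS2 is therefore no sign of few reads. RPL10L, a paralog of RPL10, had 0 to 3 counts in each library and was not tested in any comparison.

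In defect against normal tissue, most of the family fell by a small factor. A log2 fold change here comes from edgeR's quasi-likelihood test over all genes that passed its count filter, and a gene is called at a Benjamini-Hochberg adjusted p under 0.05. Of 81 members tested, 66 fell (31.9% of all genes tested fell) and 2 rose (32.0% of all genes rose). The median log2 fold change was -0.36 over the members, a 1.29-fold lower level, against -0.05 over all genes. It was -0.36 for the large and -0.39 for the small subunit. Libraries of the groups did not overlap for 68 members lower in defect (33.7% of all genes) and 1 higher (17.0%). Of the members that fell, 17 were past 1.5-fold, and the share of all genes past that fold is not reported here. The 2 that rose, RPL26L1 (log2 fold change 0.32 ± 0.14, SE, adjusted p = 0.036) and RPL7L1 (0.26 ± 0.10, adjusted p = 0.0279), are low paralogs, and their change turns to -0.04 and -0.11 when libraries are scaled by their total alone. Each call was also lost in 10 of 22 alternatives, DESeq2 among them. RPL26L1 had 8 and 6 counts in defect replicates 1 and 2 (37.4 and 24.0 CPM, beside 19.5 CPM in replicate 3), and its log2 fold change without replicate 3 was 0.91 with an adjusted p of 0.15.

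RPS14, a small-subunit protein near the messenger RNA exit whose loss of 1 copy marks a form of myelodysplastic syndrome, was the member that fell furthest in defect. Its gene lies on chromosome 2 at 151430047 to 151433951 in Sscrofa11.1 and overlaps NDST1 by 27 bases. RPS14 stood at 1323, 1249 and 1207 CPM in the normal libraries and at 420, 528 and 534 CPM in the defect libraries. It had 654, 636 and 667 CPM in implantation A, 532, 505 and 505 CPM in implantation B, and 1026, 1026 and 1039 CPM in ECs+ implantation. Every normal library was above every other library, the ECs+ implantation libraries came next, and defect and implantation B overlapped. In per-length units the order was similar, with 5561 ± 208 TPM in normal, 3827 ± 47.5 TPM in ECs+ implantation, 3183 ± 67.9 TPM in implantation A, 2220 ± 256 TPM in defect and 2200 ± 60.8 TPM in implantation B.

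**Figure D2:**
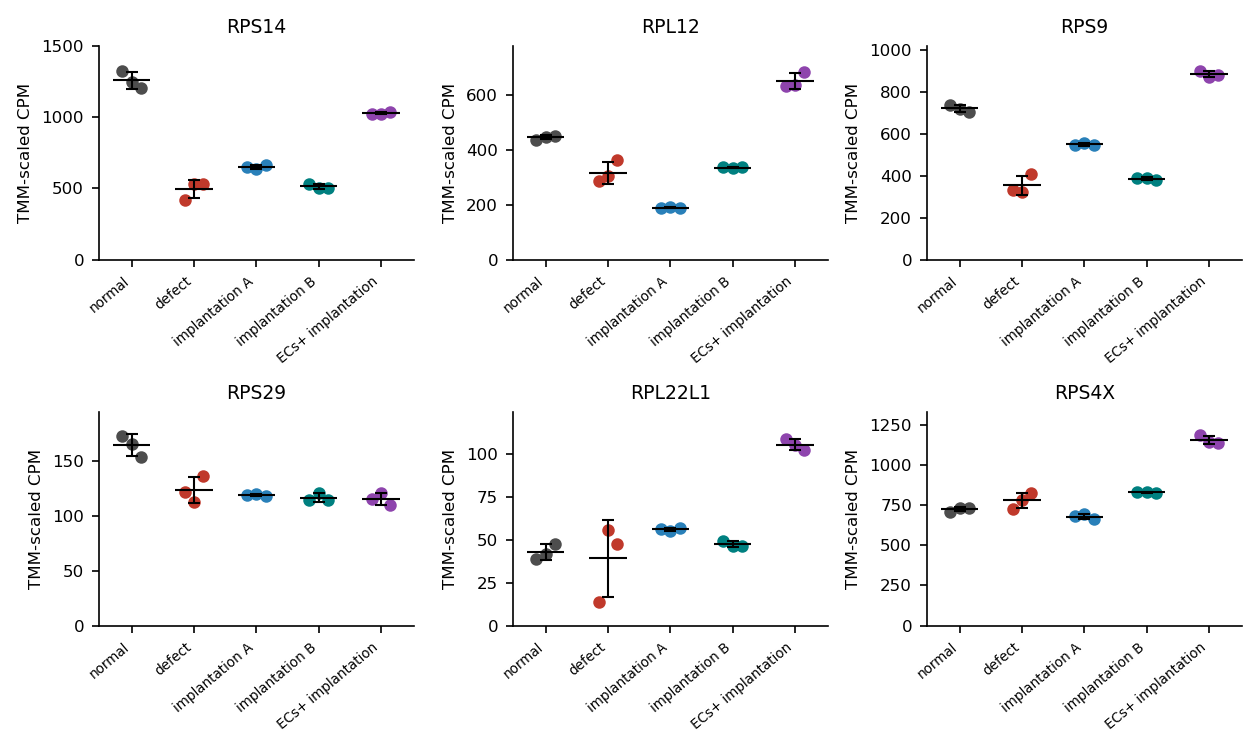
TMM-scaled CPM (vertical axis, from 0) of 6 members in each of the 15 libraries by group; points are libraries, lines means and bars SD (n = 3). RPS14 is highest in normal, RPL12 lowest in implantation A (189 to 191 CPM), RPS9 lowest in defect and implantation B, RPS29 at 110 to 121 CPM in both implantation B and ECs+ implantation, RPL22L1 spread in defect, and RPS4X near or above its normal level in defect and implantation B.

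RPS14 fell by 1.28 on the log2 scale in defect against normal (SE 0.084, adjusted p = 4.59e-24). To set a member against its family, the fit was repeated with libraries scaled by the median ratio over the members, so that the log2 value is a departure from the common shift. The departure of RPS14 in defect was -0.91 ± 0.052 (SE, adjusted p = 1.26e-19). Its share of the family's counts was 2.66% ± 0.0923 in normal and 1.85% ± 0.0435 for implantation A. The share was 1.52% ± 0.0107 for ECs+ implantation, 1.49% ± 0.180 for defect and 1.47% ± 0.0321 for implantation B, and the defect libraries spanned the other 2 groups. Across 14 ways of fitting the departure, including each library left out in turn, its value in defect against normal lay between -0.95 and -0.81.

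In defect against normal, 25 members departed below the common shift (19.8% of all genes did) and 25 above it (45.0%), with 13 large-subunit and 12 small-subunit members on each side. The share of members that departed either way was close to that of all genes. Scaling by the family moved the median of all genes to 0.26, so the all-gene share partly reflects that shift. Departures here and below are ranked among members with a mean log2 CPM of at least 3, which leaves out RPL3L, RPL10L and RPS21. After RPS14 the lowest were RPS9 (-0.54 ± 0.050, adjusted p = 9.05e-13), a small-subunit protein near the messenger RNA entry, and RPLP2 (-0.51), an acidic stalk protein of the large subunit. The highest were the paralogs RPL26L1 (0.63), RPL7L1 (0.57) and RPS27L (0.56), and RPS4X (0.53 ± 0.049, adjusted p = 7.03e-13), the X-linked small-subunit protein. RPS4X was measured at 709, 735 and 734 CPM in normal and 729, 785 and 825 CPM in defect, which overlap, and its own log2 fold change of 0.14 was not called (adjusted p = 0.101). Without defect replicate 3, which leaves the shallow defect libraries, 24 members departed in place of 50. The members' median without it was -0.58, and the departures of RPL7L1 (adjusted p = 0.276) and RPS27L were no longer called.

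**Figure D3:**
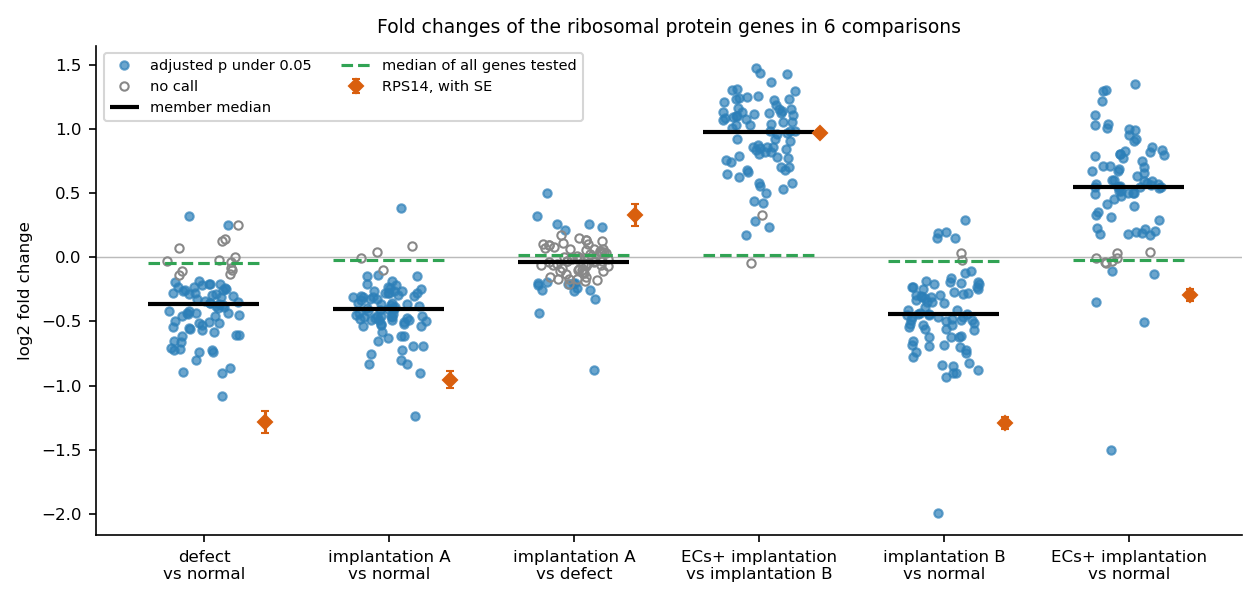
Log2 fold change (vertical axis) of each tested member in 6 comparisons (horizontal axis). Filled points passed an adjusted p under 0.05, open points did not, black lines are member medians, green dashed lines medians of all genes tested and diamonds RPS14 with its SE; most members lie below the all-gene median in the comparisons of defect, implantation A and implantation B with normal, around it in implantation A against defect, and mostly above it in both comparisons of ECs+ implantation.

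In implantation A against normal, the fall was of similar size and reached nearly the whole family. Of 81 members tested, 76 fell (32.3% of all genes) and 1 rose (32.2%), with a median log2 fold change of -0.40, a 1.32-fold lower level, against -0.02 over all genes. Libraries did not overlap for 77 members lower in implantation A (34.6% of all genes) and 2 higher (34.3%). The median was -0.41 for the large and -0.39 for the small subunit. On TPM, tested with limma on log2(TPM + 1), the median was -0.25 and 44 members were called, all of them lower. The member that rose was RPL22L1, a paralog of RPL22, with 39.0, 41.9 and 47.9 CPM in normal and 56.3, 55.4 and 56.8 CPM in implantation A. Its log2 fold change was 0.39 ± 0.072 (adjusted p = 2.6e-06), and the call was lost on TPM.

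Against the common shift of implantation A, 21 members departed below (12.0% of all genes) and 28 above (57.4%). The lowest was RPL12, a protein at the base of the large subunit's stalk, whose gene lies on chromosome 1 at 267961398 to 267964881 in Sscrofa11.1 and overlaps LRSAM1. RPL12 had 437, 448 and 451 CPM in normal, 285, 304 and 362 CPM in defect, and 189, 191 and 189 CPM in implantation A. It had 337, 333 and 336 CPM in implantation B, and 631, 637 and 685 CPM in ECs+ implantation. Implantation A was below every other library, whereas defect and implantation B overlapped. The departure of RPL12 was -0.83 ± 0.041 in implantation A against normal (adjusted p = 3.65e-22) and -0.82 ± 0.054 against defect (adjusted p = 2.3e-17). In defect against normal it was -0.01 and in implantation B against normal 0.02, neither called (adjusted p = 0.918 and 0.665). The other low departures against normal were RPS14 (-0.54 ± 0.040), RPS28 (-0.42, small subunit) and RPL7A (-0.42, large subunit), and the high ones were RPL22L1 (0.79), RPL7L1 (0.50), RPS27L (0.45) and RPL26L1 (0.40).

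RPL7A, which lies on chromosome 1 at 272961421 to 272965636 and overlaps MED22, was low in implantation B as well. It had 954, 924 and 893 CPM in normal, 584, 661 and 745 CPM in defect, 512, 522 and 529 CPM in implantation A, and 509, 496 and 499 CPM in implantation B. All implantation A and B libraries were below all defect libraries. The departure of RPL7A was -0.42 in implantation A and -0.46 in implantation B against normal, against -0.01 in defect (adjusted p = 0.916). These comparisons share the normal libraries.

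Between implantation A and defect single members differed, with medians of the family and of all genes close together on TMM-scaled counts. Of 81 tested, 7 rose (20.4% of all genes) and 13 fell (21.4%), with a median log2 fold change of -0.04 against 0.02 over all genes. The direction depended on scaling. Scaled by library totals alone, 58 members rose and 2 fell with a median of 0.22. All genes moved with them: 7930 of 17855 rose and 1761 fell, with a median of 0.33. Relative to the median of all genes, the members' median was -0.11 with totals alone and -0.06 with TMM. On TPM 42 members rose and 2 fell with a median of 0.23, and values of all genes on TPM are not reported here. Libraries did not overlap for 8 members lower (11.4% of all genes) and 12 higher (28.9%) in implantation A. Among members that moved with respect to the common shift, 12 departed below (16.9% of all genes) and 15 above (27.0%). Without defect replicate 3, 11 members departed in place of 27 and the median log2 fold change was 0.21. The number called was 8 to 10 when any implantation A library was left out, 13 without normal replicate 2, 39 without defect replicates 1 and 2, and 10 with the replicate number as a block.

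RPS9, on chromosome 6 at 55920930 to 55927280, had the largest rise in implantation A against defect. It had 332, 324 and 407 CPM in defect and 546, 557 and 547 CPM in implantation A, against 740, 720 and 704 CPM in normal. The 3 groups did not overlap. Its log2 fold change was 0.50 ± 0.083 (adjusted p = 3.75e-07) and its departure 0.55 ± 0.050 (adjusted p = 1.54e-12). RPS14 departed by 0.37 ± 0.052 (adjusted p = 1.41e-07), which without defect replicate 3 was 0.27 with an adjusted p of 0.0634. Its log2 fold change of 0.33 (adjusted p = 8.4e-04) was not called by limma-voom with quality weights (adjusted p = 0.112). RPL31 (0.36, large subunit) and RPL22L1 (0.36) also departed upward. RPL22L1 rested on 3 and 14 counts in the shallow defect libraries, which had 14.0 and 56.1 CPM beside 47.5 CPM in defect replicate 3, and without that last library the departure was not called (adjusted p = 0.637). The low departures were RPL12, RPL7A (-0.41 ± 0.048) and RPL15 (-0.23, large subunit, not called without defect replicate 3), and RPL26L1 stood at -0.23 without a call (adjusted p = 0.192).

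**Figure D4:**
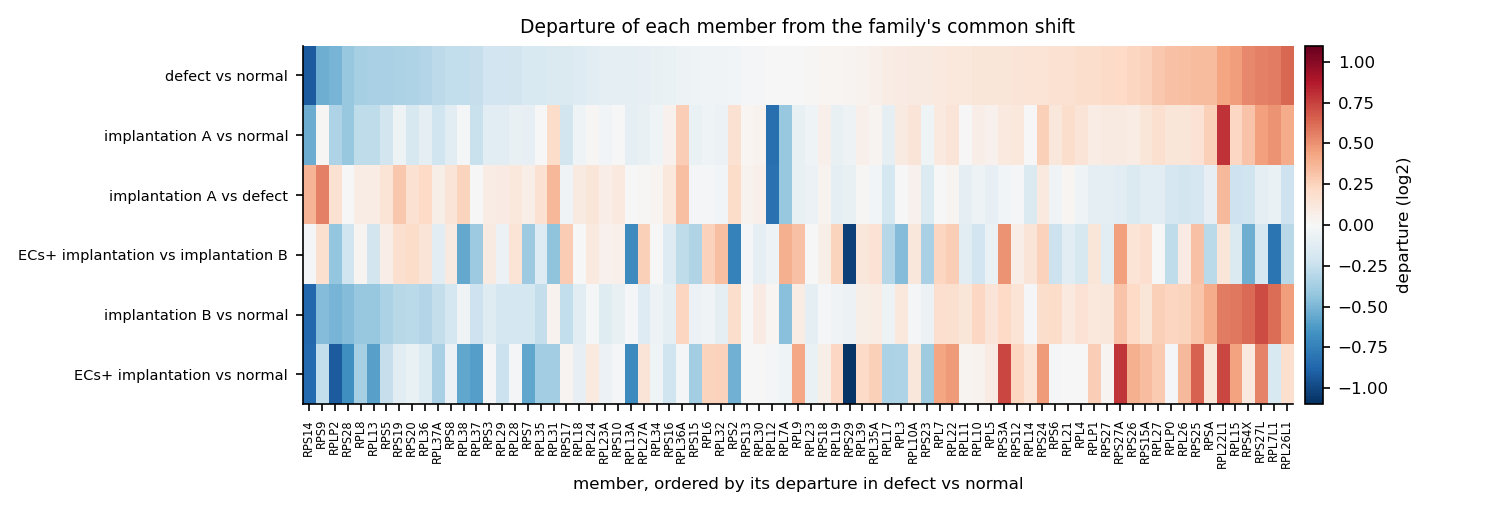
Departure from the family's common shift (colour, log2, red above and blue below) of 77 members (columns, ordered by defect against normal) in 6 comparisons (rows). RPS14 is low in all comparisons with normal but not in ECs+ implantation against implantation B, RPL12 is at -0.83 and -0.82 in the comparisons of implantation A, and RPS29 is low in both comparisons of ECs+ implantation; members with a mean log2 CPM under 3 are not drawn.

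In ECs+ implantation against implantation B, nearly the whole family rose. Of 80 members tested, 78 rose (37.8% of all genes) and 0 fell (38.1% of all genes), by edgeR's quasi-likelihood test. The same 78 had an unadjusted p under 0.05, and DESeq2 called 78. The median log2 fold change was 0.98, a 1.97-fold higher level, against 0.02 over all genes, with 0.95 for the large and 1.04 for the small subunit. Of the members that rose, 68 were past 1.5-fold, without a share of all genes at that fold to set beside it. For 78 members every ECs+ implantation library was above every implantation B library (40.6% of all genes). For none of the tested members was the reverse true (37.0% of all genes). RPS21 and RPS29 were not called, and RPL3L and RPL10L were not tested.

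RPS14 moved with the family here: its log2 fold change was 0.97 ± 0.022 (adjusted p = 6.16e-39) and its departure -0.01 ± 0.024 (adjusted p = 0.615). RPS29, a zinc-binding protein of the small subunit whose gene lies on chromosome 1 at 179454923 to 179456847, did not follow the family. It had 114, 121 and 114 CPM in implantation B and 115, 121 and 110 CPM in ECs+ implantation, with 173, 165 and 153 CPM in normal. The ECs+ implantation and implantation B libraries overlapped, and all were below normal. Its log2 fold change was -0.05 ± 0.039 (adjusted p = 0.273) and its departure -1.03 ± 0.041 (adjusted p = 1.95e-32).

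In this comparison 37 members departed below the common shift (80.7% of all genes) and 34 above (6.21%), together a share close to that of all genes. Scaling by the family moved the median of all genes to -0.96, so their share reflects that shift and does not measure how far members scatter. Below it after RPS29 were RPL7L1 (-0.80), RPS2 (-0.74) and RPL13A (-0.70), a large-subunit protein also known from an interferon-responsive translation silencing complex. RPL7L1 and RPS2 had log2 fold changes of 0.18 and 0.24 on counts, and -0.07 and -0.03 on log2(TPM + 1). Above it were RPS3A (0.50 ± 0.023, adjusted p = 1.94e-29, small subunit), RPS27A (0.45) and RPL7A (0.39). RPS27A encodes ubiquitin fused to a small-subunit protein. RPS3A rose from 571, 561 and 556 CPM in implantation B to 1567, 1595 and 1651 CPM in ECs+ implantation, a log2 fold change of 1.48 that was the largest of the family. Defect against normal and ECs+ implantation against implantation B share no library, and across 79 members their departures had a Pearson correlation of -0.08 and a Spearman correlation of -0.02, as a description of members that share their libraries within each comparison.

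Against normal tissue, implantation B was lower and ECs+ implantation higher. In implantation B, 74 of 81 members fell (36.7% of all genes) and 5 rose (37.1%), with a median log2 fold change of -0.44 against -0.03 over all genes, a 1.36-fold lower level. Libraries did not overlap for 72 members lower in implantation B (37.6% of all genes) and 3 higher (37.9%). In ECs+ implantation, 68 of 81 rose (35.7%) and 6 fell (35.6%), with a median of 0.55 against -0.02 over all genes, a 1.47-fold higher level. Libraries did not overlap for 68 members higher (35.5% of all genes) and 5 lower (35.8%). The members that fell numbered 12 with library totals alone, 12 with upper quartile scaling and 10 with median of ratios scaling. On log2(TPM + 1) the ECs+ implantation median was 0.32. The members that rose in implantation B were RPL15, RPL22L1, RPL7L1, RPS27L and RPS4X. Of these, RPL15 (-0.16), RPL7L1 (-0.12), RPS27L (-0.02) and RPS4X (-0.12) turn negative when libraries are scaled by their totals alone. The rise of RPL22L1 was not called with that scaling either: 0 members rose and 79 fell, while 4631 of all genes rose and 9425 fell. The members that fell in ECs+ implantation were RPL13A, RPL3L, RPLP2, RPS14, RPS28 and RPS29. The call of RPL13A (log2 fold change -0.13) was lost when any ECs+ implantation library or normal replicate 1 was left out.

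RPS14 lay far below the common shift in both. In implantation B its log2 fold change against normal was -1.29 ± 0.047 (adjusted p = 1.38e-37) and its departure -0.87 ± 0.035 (adjusted p = 2.92e-31). In ECs+ implantation its log2 fold change was -0.29 ± 0.047 (adjusted p = 8.41e-08) and its departure -0.86 ± 0.034 (adjusted p = 2.87e-31). Both values use the same normal libraries, and the direct comparison of these groups is the departure of -0.01 given above.

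Beside RPS14, the low departures in implantation B were RPLP2 (-0.51), RPS28 (-0.48) and RPS9 (-0.47), among 30 below (19.1% of all genes), and the high ones RPS27L (0.72), RPS4X (0.62), RPL7L1 (0.62) and RPL15 (0.58), among 33 above (55.1%). In ECs+ implantation 31 departed below (64.6%). Those with a mean log2 CPM of at least 3 were led by RPS29 (-1.07 ± 0.046, adjusted p = 7.16e-30), RPLP2 (-0.91), RPS14 and RPL13A (-0.70). RPL3L, under that level, is left out of both rankings. The 29 above (13.3%) were led by RPS27A (0.79), RPS3A (0.74), RPL22L1 (0.73) and RPS25 (0.65), a small-subunit protein used in initiation at internal entry sites.

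The stalk of the large subunit, which recruits translation factors, is built of RPLP0 bound by RPLP1 and RPLP2, and its genes did not move together. RPLP2 had 592, 580 and 537 CPM in normal, 196, 220 and 341 CPM in defect, 336, 332 and 348 CPM in implantation A, 308, 294 and 292 CPM in implantation B and 449, 453 and 441 CPM in ECs+ implantation. No library of the other groups reached the normal level of RPLP2. RPLP1 had group means of 799 ± 28.1 CPM in normal, 646 ± 95.3 CPM in defect, 640 ± 5.63 CPM in implantation A, 645 ± 11.7 CPM in implantation B and 1427 ± 16.0 CPM in ECs+ implantation. RPLP0 followed with 1407 ± 42.8, 1267 ± 137, 1163 ± 8.48, 1231 ± 13.2 and 2051 ± 33.2 CPM in the same order of groups. In ECs+ implantation against normal, RPLP2 fell by 0.35 on the log2 scale (adjusted p = 3.99e-08), while RPLP1 rose by 0.84 (adjusted p = 4.38e-26) and RPLP0 by 0.54 (adjusted p = 1.86e-16). In defect against normal the departures were -0.51 for RPLP2, 0.20 for RPLP1 and 0.32 for RPLP0, each called.

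The 6 paralogs were low. In defect against normal RPL3L fell, RPL22L1 and RPS27L were not called, and the rises of RPL26L1 and RPL7L1 were lost in the alternatives given above. Their median log2 fold change over those tested was 0.25 in defect, 0.04 in implantation A and 0.15 in implantation B against normal, where the canonical members' medians were -0.37, -0.41 and -0.45. The paralog medians in defect and implantation A are the values of RPS27L alone, which was not called in either (adjusted p = 0.0894 and 0.707). Without defect replicate 3 the value of RPS27L in defect was -0.25, so the defect median is no sign that the paralogs rose. For ECs+ implantation against implantation B it was 0.73 beside 0.99. RPL22L1 reached 109, 105 and 103 CPM in ECs+ implantation, above every other library, with a log2 fold change of 1.30 ± 0.061 against normal (adjusted p = 3.21e-31). RPS27L had group means of 18.0 CPM in normal, 17.3 CPM in defect, 18.6 CPM in implantation A, 22.0 CPM in implantation B and 38.9 CPM in ECs+ implantation, and RPL26L1 16.1, 27.0, 16.1, 16.5 and 27.0 CPM, where the defect mean is carried by the few counts of the shallow libraries. RPL7L1 stayed between group means of 33.2 and 43.8 CPM. RPL3L, a striated muscle paralog of RPL3, went the other way with 1.3 to 1.9 CPM in normal and 0.26 to 0.49 CPM in implantation B. Its 0 counts in defect replicates 1 and 2 lie below the 3-count limit of those libraries, as do the 0 counts of RPS21 there.

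RPS19, RPL5, RPL11 and RPS26 are among the genes mutated in Diamond-Blackfan anaemia, an inherited failure of red cell production, and of these 4 RPS19 was the lowest against the common shift in defect. RPS19 had 788, 800 and 754 CPM in normal and 378, 400 and 506 CPM in defect, without overlap, and departed by -0.35 ± 0.049 (adjusted p = 2.9e-08). RPL5 and RPL11, which together bind MDM2, fell by 0.26 (adjusted p = 0.00354) and 0.25 (adjusted p = 0.00428) on the log2 scale, less than the median member. RPS26 was at 262, 168 and 300 CPM in defect and 302, 313 and 299 CPM in normal, which overlap, and was not called (adjusted p = 0.244). The overlap depends on the TMM factors: on library totals alone, RPS26 was lower in every defect library than in every normal library. All 4 rose in ECs+ implantation against implantation B, by 1.16 (RPS19), 0.91 (RPL5), 0.86 (RPL11) and 1.13 (RPS26).

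Ordered by group mean, 70 of 79 members with enough counts were highest in ECs+ implantation and 9 in normal: RPL13, RPL13A, RPL37, RPL38, RPLP2, RPS14, RPS28, RPS29 and RPS7. Defect held the lowest mean for 45, implantation B for 17 and implantation A for 15. RPL7L1 was lowest in normal and RPS29 in ECs+ implantation. The count for defect depends on its shallow libraries and their scaling. The family's summed level was 30841 and 31211 CPM in defect replicates 1 and 2, but 38033 CPM in replicate 3. That last value was above every implantation A and implantation B library (34680 to 35302 CPM). Shares of all genes by highest or lowest group are not reported here. Across the 79 members, the departure had a Pearson correlation with the mean log2 TPM level of -0.45 in defect, -0.49 in implantation A and -0.49 in implantation B against normal, and of 0.20 in ECs+ implantation against implantation B; the points share libraries and the paralogs are the lowest genes.

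By Pearson correlation of log2 CPM over the 15 libraries, among 10837 genes, the pattern most like RPS14 was that of ARAP3 (0.996), LRRC45 (0.996) and ARHGEF15 (0.991). ARAP3 had group means of 524 CPM in normal, 362 CPM in ECs+ implantation, 189 CPM in implantation A, 127 CPM in implantation B and 110 CPM in defect. Among the members the nearest were RPL13 (0.975) and RPS7 (0.974), and the farthest RPS4X (0.26), RPL7L1 (-0.02) and RPL26L1 (-0.10). Over the 13 libraries without defect replicates 1 and 2 these were 0.21, -0.10 and 0.31, so the value of RPL26L1 rests on the shallow libraries. The 15 points are 5 groups of 3 libraries, so these values describe the group pattern. On library totals alone, the summed endothelial marker level was highest in normal, with 4803 to 4955 CPM, then 4447 to 4543 CPM in ECs+ implantation. It was 2617 to 2638 CPM in implantation A, 2450 to 2618 CPM in defect and 1800 to 1813 CPM in implantation B, with no marker of the 12 at 0 in any group. The RPS14 levels are scaled by TMM factors, which were 1.08 to 1.12 in normal and 1.02 in ECs+ implantation. The order of the marker sums may therefore not hold on that scale. The part of the endothelial marker level in the RPS14 pattern was not tested.

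The 4 ribosomal protein genes outside the symbol rule moved in the same directions as most members. The 4, which include FAU, RACK1 and RPL36AL, all fell in defect, implantation A and implantation B against normal, with medians of -0.39, -0.49 and -0.46, and all rose in ECs+ implantation against implantation B with a median of 0.73. RACK1, a scaffold protein on the small subunit, had 914, 863 and 863 CPM in normal and 1302, 1278 and 1295 CPM in ECs+ implantation, with no overlap. In implantation A against defect the log2 fold changes were -0.19 for RPL36AL (adjusted p = 0.0805), -0.13 for RACK1 (adjusted p = 0.199) and -0.07 for FAU (adjusted p = 0.556), none of them called.

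Other genes of the translation machinery moved in both directions. Over all genes tested, 32.0% rose and 31.9% fell in defect against normal, and 37.8% rose and 38.1% fell in ECs+ implantation against implantation B. Among 20 further TOP mRNAs, 11 fell and 6 rose in defect against normal (median log2 fold change -0.18), with EIF3F at -1.02 ± 0.08, an initiation factor subunit, and NPM1, a nucleolar chaperone, at 0.73 ± 0.08. Between ECs+ implantation and implantation B, 18 were higher and 1 lower in the former (median 0.73), led by NACA (1.45), which binds nascent chains. Of 45 translation factors, 24 rose and 12 fell in defect (median 0.22), with EIF5 at 1.15 and EIF3A at 1.06, and 23 rose and 15 fell in ECs+ implantation against implantation B (median 0.23), with EIF4G1 at -1.27 and EEF1B2 at 1.15. Of 48 ribosome biogenesis genes, 19 rose and 18 fell in defect (median 0.00), near the shares of all genes, with NCL, the nucleolar protein nucleolin, at 0.77 and TCOF1 at -1.17. Of the same 48, 10 rose and 28 fell in ECs+ implantation against implantation B (median -0.24), with the nucleolar helicase DDX21 at -1.23, while 78 ribosomal protein genes rose.

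Of 77 mitochondrial ribosomal protein genes, 11 rose and 19 fell in defect (median -0.04), and 49 rose and 6 fell in ECs+ implantation against implantation B (median 0.31). In implantation A against normal 5 rose and 27 fell (median -0.12). MRPL12 fell by 0.98 in defect and rose by 1.13 in ECs+ implantation against implantation B on the log2 scale. Of 42 genes of mTORC1 and MYC control, 15 rose and 17 fell in defect and 17 rose and 18 fell in ECs+ implantation against implantation B, shares near those of all genes. TSC2, an inhibitor of mTORC1, was at -1.47 in defect and 0.84 in ECs+ implantation against implantation B. In the latter comparison MYC stood at -1.44 and LARP1, the TOP mRNA binding protein, at -0.84. Of 15 RNA polymerase I genes, 3 rose and 5 fell in defect, and 7 rose and 5 fell in ECs+ implantation against implantation B. Of 19 nuclear respiratory chain subunit genes, 4 rose and 1 fell in defect, and 9 rose and 3 fell in ECs+ implantation against implantation B.

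Scaling moved the level of all genes together. With library totals alone the median log2 fold change over all genes went from -0.05 to -0.41 in defect against normal, from 0.02 to 0.33 in implantation A against defect, from 0.02 to 0.26 in ECs+ implantation against implantation B and from -0.03 to -0.34 in implantation B against normal. The numbers of all genes that rose and fell then went from 5715 and 5692 to 3457 and 8889, from 3642 and 3823 to 7930 and 1761, from 6501 and 6547 to 8684 and 4894, and from 6796 and 6715 to 4631 and 9425 in these comparisons. Taken relative to the median of all genes, the members' median moved little: from -0.31 to -0.28 in defect against normal, from -0.06 to -0.11 in implantation A against defect, and from 0.96 to 0.96 in ECs+ implantation against implantation B.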

How the data were processed

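Per the submitters' processing notes, fastp, HISAT2, HTSeq and DESeq2 were used with the Sscrofa11.1 build, and versions and the strand setting are not given in the sources used here. The deposited table of raw counts per gene was tested with edgeR 4.0.16 in R 4.3.3 (filterByExpr, TMM, robust glmQLFit, glmQLFTest, two-sided). Defect, normal and implantation A were fitted together, implantation B and ECs+ implantation together, and all 15 libraries for their comparisons with normal. The deposited TPM table, made by the authors, was used for levels between genes and, as log2(TPM + 1), for an alternative test in limma 3.58.1. DESeq2 1.42.0 was another alternative. The common shift was set by members with a mean count of at least 50. The statistics were checked on simulated counts. Intervals of counts cover counting error only.

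The members and lists were chosen with earlier results of these data known. Named were RPS14, the paralogs, the 4 members departing furthest each way with a mean log2 CPM of at least 3, the 3 highest and 3 lowest in TPM, 4 Diamond-Blackfan genes, up to 4 genes of smallest p per list, and the 3 genes most like RPS14. Other members were named after their values were seen. A few genes that the rule names are not reported here. Positions are from RefSeq (Sscrofa11.1), where all 82 symbols matched, RPL18 at more than 1 place. Of the members, 14 overlap another annotated gene, whose reads cannot be told apart without strand. Correlations of same-numbered libraries lay between -0.16 and 0.18. With 3 libraries per group, these values cannot decide whether libraries of the same number share a source.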

Additional observations from a re-analysis of the deposited data

How the results depend on the processing

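Over 98 values of single members, 1669 of 1810 alternative values kept direction and side of the threshold, 98 lost the call and 10 reversed. The cause was not tested. In defect against normal the median of -0.36 was -0.689 on library size alone and -0.577 to -0.338 with 1 library left out. Members apart from the common shift numbered 24 to 54 with 1 library left out and 56 with libraries scaled by summed member counts, and RPL26L1 (-0.044) and RPL7L1 (-0.110) reversed on library size. In implantation A against normal the median of -0.40 was -0.460 with DESeq2 and median of ratios scaling, -0.461 on library size, -0.463 with upper quartile and -0.254 on TPM with either pseudocount, where 44 members were called. In implantation A against defect the median of -0.04 was 0.219 on library size, 0.234 on TPM and -0.0710 to 0.205 with 1 library left out. The 20 members called became 60 on library size, 43 (pseudocount 0.1) and 44 (1) on TPM, 3 with limma-voom quality weights, 41 in a fit of those groups alone, 39 without defect replicates 1 and 2, and 8 to 24 with 1 library left out. Of these 8 was without implantation A replicate 3, 9 and 10 without its replicates 1 and 2, and 13 without normal replicate 2. With the replicate number as a block 10 were called. The block moved no other count of members by over 1.5 times, and the labels give no shared source for a number. Members apart from the common shift numbered 11 to 36 with 1 library left out. In ECs+ implantation against implantation B the median of 0.98 was 1.007 with all 15 libraries, 1.216 on library size, 1.034 with upper quartile, 0.827 (pseudocount 0.1) and 0.826 (1) on TPM, and 0.949 to 0.986 with 1 library left out. RPL7L1 (-0.0743 and -0.0719) and RPS2 (-0.0261 with both) reversed on TPM. In implantation B against normal the median of -0.44 was -0.557 with DESeq2 and median of ratios, -0.756 on library size, -0.492 on log2(TPM + 0.1), -0.506 with a mean count of at least 50, -0.574 with upper quartile, and -0.616 to -0.403 with 1 library left out. RPL15 (-0.160), RPL7L1 (-0.121), RPS27L (-0.0230) and RPS4X (-0.116) reversed on library size, where 0 members were called higher. In ECs+ implantation against normal the median of 0.55 was 0.451 with DESeq2 and median of ratios, 0.444 on library size, 0.325 (pseudocount 0.1) and 0.324 (1) on TPM, 0.473 with a mean count of at least 50, 0.435 with upper quartile and 0.449 to 0.574 with 1 library left out. Depth limits the defect group most, and an alternative without defect replicates 1 and 2 does not apply to ECs+ implantation against implantation B.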
